A study of Mus musculus with 4 samples.

Results

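The transcripts of 7 genes that mark resident macrophages of tissues, Cd5l, Timd4, Vsig4, Lyve1, Folr2, Adgre1 and Csf1r, were followed in the epididymal adipose tissue of male mice made obese by high-fat diet (HFD). The group was chosen by a measured value, since Cd5l had the largest decrease among the genes called lower in the comparison of WC1 with Ctrl. That comparison is therefore given for Cd5l as a description, with no test. All 7 genes were found among the 24421 gene symbols measured, and all 7 were among the 14106 genes tested, which had at least 0.5 CPM (reads of a gene divided by the library size and rescaled per library by the authors) in at least 2 libraries. Each of the 7 was above that minimum in all 4 libraries.

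All mice were wild-type C57BL/6J males. Ctrl mice began HFD at 10 weeks of age and stayed on it for 14 weeks. WC1 mice began HFD at 8 weeks of age and had it for 8 weeks, then standard diet (SD) for 2 weeks and HFD again for 6 weeks, a weight-cycling (WC) protocol. Both groups were thus 24 weeks old at the end and had had 14 weeks of HFD, so HFD was common to both groups and no library of lean tissue was analysed here. There were 2 libraries per group, with between 61465029 and 90965297 reads, at which 3 reads correspond to between 0.0345 and 0.0492 CPM. RNA came from whole tissue without a sort. The labels do not say that the libraries came from separate animals, and p-values then measure only the spread between these samples, which may be technical. The adipocyte genes of the tissue were abundant, and the summed level of 8 of them was 4913 and 6035 CPM in Ctrl against 9838 and 13334 CPM in WC1.

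Resident macrophages settle in tissues early in life or are slowly replaced from monocytes, and they clear dead cells, take up lipid and guard vessels and serous surfaces. They carry receptors for phosphatidylserine, complement, hyaluronan and folate, and they depend on the growth factor receptor encoded by Csf1r. In obesity, many monocyte-derived macrophages join them in adipose tissue and gather around dying adipocytes. Adgre1, which encodes F4/80, and Csf1r are made by both kinds of macrophage, whereas Cd5l, Timd4, Vsig4, Lyve1 and Folr2 are used for resident cells.

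Cd5l, by whose decrease the group was chosen, was below both Ctrl libraries in both WC1 libraries. Vsig4 and Folr2 were called lower in WC1 than in Ctrl, Adgre1 and Csf1r were also below both Ctrl libraries in both WC1 libraries but were not called, Timd4 was above them and not called, and Lyve1 overlapped between the groups. Of the 6 genes other than Cd5l, 2 were called lower by limma at an adjusted p under 0.05 and 0 were called higher. Over all tested genes, 7.71% were called lower and 10.2% called higher. At an unadjusted p under 0.05, 3 of the 6 were lower and 1 was higher, where the shares of all tested genes were 18.9% lower and 18.9% higher. On the recovered reads, edgeR called 2 of the 6 lower and 0 higher, against 7.14% and 10.5% of all tested genes, and DESeq2 called 3 lower and 0 higher, against 12.3% and 15.1%. Counts at an unadjusted p and by these tools in the lists below are to be read beside the same shares. The WC1 values lay below both Ctrl values in 4 of the 6 genes and above them in 1 gene, and the groups overlapped in 1 gene. Over all tested genes, the WC1 libraries lay below both Ctrl libraries in 36.6% and above them in 32.7%. Because the group was drawn up with this comparison known, nothing is read from these counts. The median log2 fold change of the 6 genes was -0.48, and that of all tested genes was -0.02. Fold changes are WC1 minus Ctrl on the log2(CPM + 1) scale, which understates changes of low genes. In RNA from whole tissue, fewer cells of a type and less RNA per cell cannot be told apart, which holds for every gene described here.

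**Figure D1:**
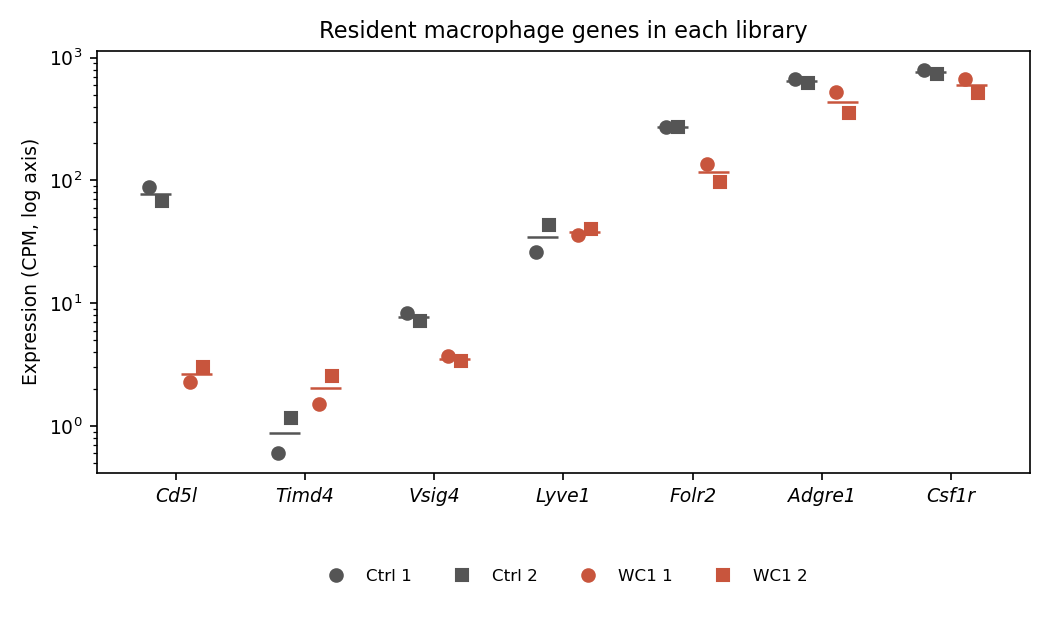
Level of each of the 7 genes in each library, in CPM on a log axis; circles and squares are libraries 1 and 2, grey is Ctrl, red is WC1, and the short lines are group means (n = 2). Cd5l lies between 68.3 and 88.0 CPM in Ctrl and between 2.29 and 3.03 CPM in WC1, Vsig4 and Folr2 are also lower in both WC1 libraries, and only in Lyve1 do the groups overlap.

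Cd5l encodes a secreted scavenger receptor protein, also called AIM, that macrophages release and that circulates bound to immunoglobulin M. It lies on chromosome 3 at positions 87357881 to 87371073 of GRCm38 (mm10), on the plus strand. Its level was 88.0 and 68.3 CPM in Ctrl, from 6021 and 5941 reads, and 2.29 and 3.03 CPM in WC1, from 140 and 191 reads. The groups lay far apart, and even the lower of the WC1 libraries held reads well above the 3 that set the limit of detection. The mean level was 78.2 ± 14.0 CPM in Ctrl against 2.66 ± 0.523 CPM in WC1 (SD, n = 2), a ratio of 29.3 between the means. The log2 fold change was -4.43 ± 0.17 (SE). The genes called lower with the next largest decreases were A530064D06Rik with a log2 fold change of -4.14 ± 0.13, Serpinb9b with -4.11 ± 0.38 and Clec4d with -4.07 ± 0.27. These 3 lie just outside the rule that chose Cd5l.

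The bases before the start of Cd5l are shown because macrophage regulators with known DNA motifs, among them PU.1 and MAF, were measured in the same libraries. Sequences are RefSeq promoters of GRCm38.p6, the 250 bases before the annotated start, 5′ to 3′ on the strand of the gene. Capitals mark matches, on either strand, of GAGGAA (a PU.1 core), TGCTGA (a MAF half-site) and AGGTCA (a nuclear receptor half-site). The Cd5l entry spans chr3:87357631-87357880 on the plus strand, that of Timd4 spans chr11:46810549-46810798 on the plus strand and that of Vsig4 spans chrX:96293439-96293688 on the minus strand.
Cd5l: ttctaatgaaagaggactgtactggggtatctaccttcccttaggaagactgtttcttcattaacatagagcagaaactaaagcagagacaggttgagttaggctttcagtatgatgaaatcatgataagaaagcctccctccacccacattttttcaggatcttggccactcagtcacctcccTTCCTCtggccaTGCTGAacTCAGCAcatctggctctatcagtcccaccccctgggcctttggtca
Timd4: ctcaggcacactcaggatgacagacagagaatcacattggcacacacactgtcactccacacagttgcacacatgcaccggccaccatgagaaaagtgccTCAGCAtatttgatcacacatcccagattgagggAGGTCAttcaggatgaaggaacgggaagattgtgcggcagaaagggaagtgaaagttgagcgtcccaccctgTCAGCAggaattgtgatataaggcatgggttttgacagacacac
Vsig4: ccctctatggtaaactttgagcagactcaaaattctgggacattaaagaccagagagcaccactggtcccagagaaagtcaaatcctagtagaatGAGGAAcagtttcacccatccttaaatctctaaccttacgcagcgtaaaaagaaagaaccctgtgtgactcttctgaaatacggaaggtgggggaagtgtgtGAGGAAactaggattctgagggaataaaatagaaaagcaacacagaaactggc
In Cd5l, TGCTGA on the plus strand began 54 bases before the start and a minus-strand copy began 46 bases before it, so that the pair faced each other with 2 bases between them, and a minus-strand GAGGAA began 66 bases before the start. In Timd4, minus-strand copies of TGCTGA began 150 and 44 bases before the start and AGGTCA began 116 bases before it. In Vsig4, GAGGAA began 155 and 53 bases before the start. Folr2 has 2 entries, each with 1 TGCTGA, which began 220 bases before one start and 19 bases before the other. TATAAA, the TATA box, was searched as well and was in none of these 5 windows. Of 32851 promoters of the same length, 23.3% held GAGGAA, 16.1% TGCTGA, 14.0% AGGTCA and 12.4% TATAAA. The facing pair, searched as TGCTGANNTCAGCA after the Cd5l sequence had been seen, overlaps the TGCTGA motif and was found in 2 of the promoters, those of Cd5l and Gm33479. A match is a run of letters, not a shown binding site.

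Maf, which encodes a transcription factor of resident macrophages, was lower in WC1. It was at 115 and 117 CPM in Ctrl against 63.7 and 65.2 CPM in WC1 (log2 fold change -0.84 ± 0.06, limma adjusted p = 0.0088). Spi1, which encodes PU.1, was at 222 and 225 CPM in Ctrl against 177 and 121 CPM in WC1 (log2 fold change -0.61 ± 0.18) and was not called (limma adjusted p = 0.080). Its fold change was -0.34 without WC1 2 and -0.88 without WC1 1. DESeq2 called Spi1 (adjusted p = 0.011), as did limma with the replicate number as a block (adjusted p = 0.049). It was not called by edgeR (adjusted p = 0.090) or by limma in the TPM matrix (adjusted p = 0.13). Both genes were thus below both Ctrl libraries in both WC1 libraries. Nr1h3, which encodes the liver X receptor LXRα, a nuclear receptor known to drive Cd5l, was at 89.8 and 96.7 CPM in Ctrl against 105 and 110 CPM in WC1 (log2 fold change 0.20 ± 0.07, limma adjusted p = 0.12). Id3, a regulator of Kupffer cells, rose from 46.3 and 43.0 CPM to 66.6 and 71.8 CPM (log2 fold change 0.62 ± 0.08, limma adjusted p = 0.018), and Zeb2, needed for macrophage identity, rose (log2 fold change 0.37 ± 0.08, limma adjusted p = 0.036). Of the 12 macrophage transcription factors tested, 2 were called lower, 2 higher and 8 not by limma, with 3 and 3 at an unadjusted p under 0.05, 2 and 2 by edgeR and 3 and 2 by DESeq2, and the median log2 fold change was -0.00.

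CD5L enters adipocytes through CD36 and binds fatty acid synthase there. Cd36, the fatty acid uptake receptor, was at 6237 and 5977 CPM in Ctrl against 5400.2 and 4909 CPM in WC1 (log2 fold change -0.25 ± 0.24, limma adjusted p = 0.49). Fasn, which encodes fatty acid synthase, rose from 876 and 913 CPM to 1929 and 2268 CPM (log2 fold change 1.23 ± 0.14, limma adjusted p = 0.016). Scd1, the enzyme that makes monounsaturated fatty acids, and Plin1, a lipid droplet coat protein, also rose, with log2 fold changes of 1.32 ± 0.25 and 1.03 ± 0.18 (limma adjusted p = 0.032 and 0.026). Of the 8 genes of partners and lipid targets of CD5L that were tested, 0 were called lower and 3 higher, with a median log2 fold change of 0.93. At an unadjusted p under 0.05, 0 of the 8 were lower and 5 higher (all tested genes, 18.9% and 18.9%), and edgeR called 0 lower and 4 higher and DESeq2 0 lower and 5 higher.

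The proteins related to CD5L by their scavenger receptor domains differed among themselves. Msr1, the class A scavenger receptor, fell from 160 and 138 CPM to 67.0 and 45.7 CPM (log2 fold change -1.41 ± 0.19, limma adjusted p = 0.019). Marco, a scavenger receptor for particles, fell from 12.2 and 8.62 CPM to 2.74 and 4.27 CPM (log2 fold change -1.34 ± 0.24, limma adjusted p = 0.027). Cd163, the haemoglobin receptor of resident macrophages, was at 23.6 and 26.3 CPM in Ctrl against 29.5 and 35.4 CPM in WC1, the opposite side from Cd5l, and was not called (limma adjusted p = 0.091). Scara5, a ferritin receptor, was not called (log2 fold change -0.38 ± 0.09, limma adjusted p = 0.053). Of the 9 relatives tested, 2 were called lower, 0 higher and 7 not, with a median log2 fold change of 0.27. At an unadjusted p under 0.05, 4 of the 9 were lower and 2 higher, with 2 and 0 called by edgeR and 4 and 1 by DESeq2.

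Timd4 encodes TIM-4, a receptor for the phosphatidylserine that dying cells expose, and lies on chromosome 11 at positions 46810800 to 46844332 on the plus strand. It had the lowest mean level per transcript length (TPM) of the 7 genes in each group, and its level was 0.600 and 1.16 CPM in Ctrl against 1.51 and 2.56 CPM in WC1, from 41 to 161 reads per library. Both WC1 libraries were above both Ctrl libraries, but the libraries within a group differed by 1.94-fold in Ctrl and 1.70-fold in WC1. The log2 fold change was 0.68 ± 0.24 and did not pass (limma adjusted p = 0.11), whereas with the replicate number as a block it was called higher (adjusted p = 0.032). Without WC1 1 it was 0.94, and without WC1 2 it was 0.43. The library with the highest Timd4, WC1 2, also had the highest level of several B cell genes. Cd79a, a part of the B cell receptor, was at 0.994, 0.621, 2.02 and 9.64 CPM in Ctrl 1, Ctrl 2, WC1 1 and WC1 2, and Cd79b rose (log2 fold change 0.95 ± 0.23, limma adjusted p = 0.049). The summed level of the 9 B and T lymphocyte genes was 13.5 and 8.23 CPM in Ctrl against 12.1 and 34.8 CPM in WC1. Of these 9 genes, 0 were called lower and 1 higher by limma (0 and 2 at an unadjusted p under 0.05, 0 and 1 by edgeR, 0 and 3 by DESeq2), with a median log2 fold change of 0.08. Their part in the level of Timd4 was not tested.

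Other genes around the recognition of phosphatidylserine, direct or through bridging proteins, were then examined. Stab1, a scavenger receptor of resident macrophages and sinusoidal endothelium, fell from 730 and 686 CPM to 312 and 264 CPM (log2 fold change -1.30 ± 0.11, limma adjusted p = 0.012). Mertk, the efferocytosis kinase, fell (log2 fold change -0.60 ± 0.10, limma adjusted p = 0.024), and Havcr2, which encodes TIM-3, fell with -1.01 ± 0.22 (limma adjusted p = 0.043). Mfge8, the bridging protein between phosphatidylserine and integrins, was at 1521 and 1532 CPM in Ctrl against 1572 and 1624 CPM in WC1 and was not called (limma adjusted p = 0.73). Of 8 genes tested in this list, 3 were called lower and 0 higher by limma, by edgeR and by DESeq2, with a median log2 fold change of -0.34. In the TPM matrix 2 were called lower and 0 higher. Havcr2 was not called there (limma adjusted p = 0.055), nor without a filter (limma adjusted p = 0.075). Timd2 was listed at 0 in both WC1 libraries and at most 0.0575 CPM in Ctrl, Havcr1 was at no more than 0.0731 CPM, and Adgrb1 was at 0 in all 4 libraries.

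Vsig4 encodes CRIg, a complement receptor of resident macrophages that binds fragments of C3, and lies on chromosome X at positions 96247203 to 96293438 on the minus strand. It was at 8.35 and 7.16 CPM in Ctrl against 3.72 and 3.37 CPM in WC1. The libraries of each group were close together and the groups did not overlap. The mean was 7.75 ± 0.841 CPM in Ctrl against 3.54 ± 0.249 CPM in WC1 (SD, n = 2), and the log2 fold change -0.94 ± 0.12 (limma adjusted p = 0.019). The call was lost without Ctrl 1 (adjusted p = 0.16) and without Ctrl 2 (adjusted p = 0.10), where 4 and 6 of all tested genes were called lower. Itgb2, Itgam and Itgax encode the other complement receptor chains of phagocytes. Itgb2 fell from 1348 and 1252 CPM to 749 and 482 CPM (log2 fold change -1.11 ± 0.23, limma adjusted p = 0.036). C1qa, a chain of the C1q complement protein that macrophages secrete, fell from 874 and 853 CPM to 547 and 421 CPM (log2 fold change -0.85 ± 0.15, limma adjusted p = 0.028). Cfb, a component of the alternative pathway that adipose tissue makes, rose from 332 and 303 CPM to 471 and 690 CPM (log2 fold change 0.85 ± 0.20, limma adjusted p = 0.046). C3, the source of the ligands of CRIg, overlapped between the groups and was not called (log2 fold change -0.12 ± 0.21, limma adjusted p = 0.70), with a fold change of 0.021 in the TPM matrix. Of the 11 genes around CRIg, 5 were called lower, 1 higher and 5 not, with a median log2 fold change of -0.80. The numbers called lower and higher were 5 and 1 in edgeR, 3 and 1 in the TPM matrix and 8 and 1 in DESeq2, and 8 and 1 had an unadjusted p under 0.05.

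Lyve1 encodes a hyaluronan receptor made by a subset of resident macrophages along vessels and by lymphatic endothelium, and lies on chromosome 7 at positions 110850607 to 110863239 on the minus strand. It was at 26.1 and 43.4 CPM in Ctrl against 36.2 and 40.2 CPM in WC1. Both WC1 values lay between the Ctrl values, which differed by 1.66-fold. The log2 fold change was 0.17 ± 0.24 (limma adjusted p = 0.63), and it was -0.18 without Ctrl 1 and 0.53 without Ctrl 2. Among the markers of lymphatic endothelium, Prox1, its defining transcription factor, had 0.0731 CPM in Ctrl 1, 0.229 CPM in WC1 1 and was listed at 0 in the other libraries. Flt4, which encodes the receptor VEGFR-3, rose from 5.63 and 9.12 CPM to 14.8 and 17.7 CPM (log2 fold change 1.07 ± 0.23, limma adjusted p = 0.038), and Pdpn, made by lymphatic endothelium and by stromal cells and macrophages, fell from 108 and 102 CPM to 53.7 and 37.5 CPM (log2 fold change -1.20 ± 0.17, limma adjusted p = 0.021). Of the 6 lymphatic endothelial genes tested, 1 was called lower, 1 higher and 4 not by limma, with 1 and 3 at an unadjusted p under 0.05, 1 and 1 by edgeR and 1 and 3 by DESeq2, and the median log2 fold change was 0.49. The summed level of the 7 listed was 118 and 125 CPM in Ctrl against 81.0 and 63.0 CPM in WC1, most of it Pdpn, and the sum of the other 6 was 10.6 and 23.2 CPM in Ctrl against 27.3 and 25.5 CPM in WC1. Their part in the level of Lyve1 was not tested.

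Of 10 genes that make, bind or break down hyaluronan, 0 were called lower and 0 higher by limma, with 2 and 2 at an unadjusted p under 0.05, 0 and 0 by edgeR and 1 and 1 by DESeq2. Their median log2 fold change was -0.10. The highest in CPM was Cd44, the main hyaluronan receptor of leucocytes, at 517 and 567 CPM in Ctrl against 438 and 301 CPM in WC1 (log2 fold change -0.58 ± 0.19, limma adjusted p = 0.099). Its fold change was -0.31 without WC1 2 and -0.85 without WC1 1. Cd44 was called by DESeq2 (adjusted p = 0.018) and not by edgeR (adjusted p = 0.11). Hyal2, a hyaluronidase, was at 49.6 and 44.9 CPM in Ctrl against 42.8 and 40.5 CPM in WC1 (limma adjusted p = 0.18).

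Folr2 encodes folate receptor β, the folate receptor of resident macrophages, and lies on chromosome 7 at positions 101839988 to 101857194 on the minus strand. It was at 273 and 271 CPM in Ctrl against 136 and 98.0 CPM in WC1. The Ctrl libraries were nearly alike, the WC1 libraries differed by 1.39-fold, and the groups did not overlap. The mean was 272 ± 1.47 CPM in Ctrl against 117 ± 27.2 CPM in WC1 (SD, n = 2), and the log2 fold change -1.23 ± 0.16 (limma adjusted p = 0.019). The fold change was -1.46 without WC1 1, -0.99 without WC1 2, -1.22 without Ctrl 1 and -1.23 without Ctrl 2. The call was lost when either Ctrl library was left out. Exons of Folr2 share 975 bases with Gm10602 on the opposite strand, and the sources used here do not say whether strand was used in counting, so reads of the pair could not be told apart. Of 10 folate genes around Folr2 that were tested, 0 were called lower and 0 higher by limma, with 1 and 1 at an unadjusted p under 0.05, 0 and 0 by edgeR and 0 and 1 by DESeq2, and the median log2 fold change was 0.04. Shmt2, a mitochondrial enzyme of one-carbon metabolism, was at 41.3 and 42.8 CPM in Ctrl against 39.9 and 40.5 CPM in WC1 (log2 fold change -0.06 ± 0.07, limma adjusted p = 0.53, and 0.07 in the TPM matrix). Mthfd1, a folate enzyme of the cytosol, was at 31.7 and 29.6 CPM in Ctrl against 35.2 and 34.0 CPM in WC1 (limma adjusted p = 0.18).

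Adgre1 encodes F4/80, the adhesion receptor by which mouse macrophages are usually recognised, and lies on chromosome 17 at positions 57358691 to 57483527 on the plus strand. It was at 675 and 618 CPM in Ctrl against 522 and 353 CPM in WC1. Both WC1 libraries were below both Ctrl libraries, but they differed from each other by 1.48-fold. The log2 fold change was -0.59 ± 0.20 and did not pass (limma adjusted p = 0.10). It was -0.31 without WC1 2 and -0.87 without WC1 1, so WC1 2 carried much of the decrease. With the replicate number as a block it was called (adjusted p = 0.042), as in DESeq2 (adjusted p = 0.018). Of 5 relatives of Adgre1 among adhesion receptors, 1 was called lower, 1 higher and 3 not by limma, with 1 and 2 at an unadjusted p under 0.05 and 1 and 1 by edgeR and by DESeq2, and the median log2 fold change was 0.11. Adgre5, which encodes the leucocyte protein CD97, fell from 292 and 297 CPM to 199 and 208 CPM (log2 fold change -0.53 ± 0.07, limma adjusted p = 0.019), and Adgrl4, an endothelial receptor, rose from 34.5 and 38.3 CPM to 58.3 and 73.2 CPM (log2 fold change 0.83 ± 0.13, limma adjusted p = 0.024).

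Csf1r encodes the receptor for the macrophage growth factors CSF1 and IL-34. It was at 794 and 736 CPM in Ctrl against 668 and 520 CPM in WC1. The groups did not overlap, and the lowest level was again in WC1 2. The log2 fold change was -0.37 ± 0.15 (limma adjusted p = 0.14), with -0.19 without WC1 2 and -0.56 without WC1 1. Exons of Csf1r share 873 bases with Hmgxb3 on the opposite strand, which was at 34.1 and 32.3 CPM in Ctrl against 33.3 and 30.2 CPM in WC1, a small share of the level of Csf1r. Csf1, a ligand, was at 81.6 and 76.6 CPM in Ctrl against 68.3 and 59.7 CPM in WC1 (limma adjusted p = 0.079), and Il34, the other ligand, overlapped between the groups at 9.11 to 13.3 CPM (limma adjusted p = 0.72). Downstream, Inpp5d, which encodes the phosphatase SHIP1, fell from 137 and 138 CPM to 96.5 and 78.2 CPM (log2 fold change -0.65 ± 0.11, limma adjusted p = 0.027), and Pik3cd, the PI3-kinase δ of leucocytes, fell with -0.42 ± 0.09 (limma adjusted p = 0.036). Tyrobp, the adaptor of TREM2, had a log2 fold change of -0.76 ± 0.25 and Trem2, the lipid receptor of macrophages in obese fat, one of -0.94 ± 0.24, neither called (limma adjusted p = 0.093 and 0.054). Of 13 genes in this list, 2 were called lower, 0 higher and 11 not by limma, with 9 lower and 0 higher at an unadjusted p under 0.05, 2 and 0 by edgeR and 6 and 0 by DESeq2. The median log2 fold change was -0.36.

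Levels of different genes were compared per length, in TPM (a relative level in which reads are divided by transcript length). In Ctrl the order of mean levels was Folr2 at 483 ± 0.759 TPM, Adgre1 at 383 ± 21.5, Csf1r at 379 ± 17.7, Cd5l at 73.6 ± 12.7, Lyve1 at 25.6 ± 9.18, Vsig4 at 10.4 ± 1.06 and Timd4 at 0.777 ± 0.356 TPM (SD, n = 2). Only Adgre1 and Csf1r overlapped with their neighbour in this order. In WC1 it was Csf1r at 324 ± 50.1 TPM, Adgre1 at 285 ± 71.4, Folr2 at 229 ± 48.1, Lyve1 at 31.1 ± 3.02, Vsig4 at 5.22 ± 0.254, Cd5l at 2.77 ± 0.604 and Timd4 at 1.98 ± 0.775 TPM (SD, n = 2). The first 3 overlapped with their neighbours, as did Cd5l and Timd4. Cd5l was thus the fourth of the 7 genes in Ctrl, above Lyve1 and Vsig4, and the sixth in WC1, where it could not be set apart from Timd4, and Folr2 moved from first to the third place.

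**Figure D2:**
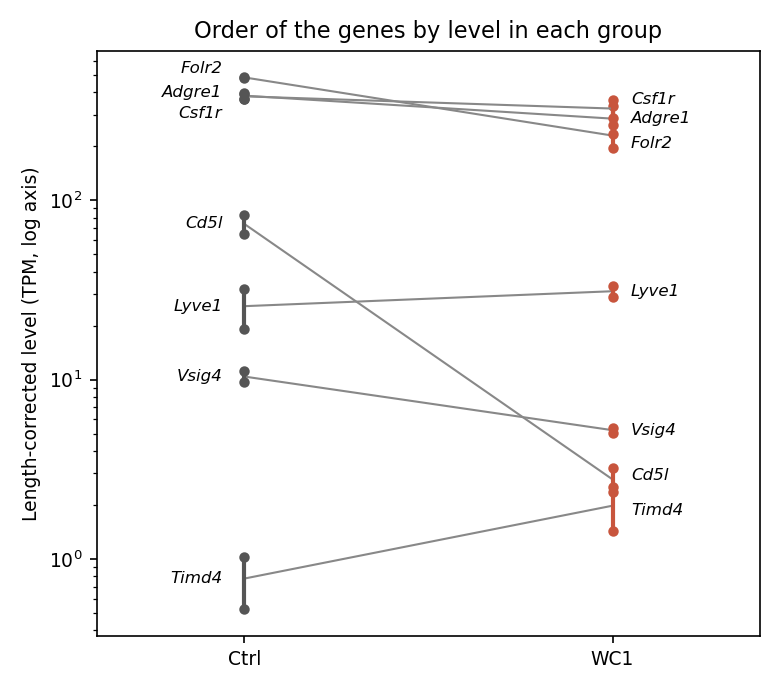
Level of each of the 7 genes per transcript length in Ctrl and in WC1, in TPM on a log axis; points are libraries (n = 2 per group), thick bars join the libraries of a group and thin lines join the group means. Cd5l passes from 73.6 to 2.77 TPM across Lyve1 and Vsig4, while Csf1r, Adgre1 and Folr2 stay between 195 and 484 TPM.

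To set the resident genes against macrophage transcripts as a whole, each was divided by Adgre1 in the same library. Cd5l was at 130 and 111 CPM per 1000 CPM of Adgre1 in Ctrl and at 4.40 and 8.59 in WC1, an 18.6-fold lower mean. Folr2 was at 404 and 439 in Ctrl and at 261 and 277 in WC1, and Vsig4 at 12.4 and 11.6 in Ctrl and at 7.13 and 9.53 in WC1. These 3 ratios did not overlap between the groups. The ratio of Timd4 was 0.888 and 1.88 in Ctrl and 2.89 and 7.24 in WC1, above both Ctrl libraries, and that of Lyve1 overlapped, at 38.7 and 70.3 in Ctrl and 69.3 and 114 in WC1. Csf1r was at 1176 and 1192 in Ctrl and at 1281 and 1472 in WC1. Relative to Adgre1, the resident genes therefore lay on both sides of their Ctrl levels. These ratios use the contrast by which Cd5l was chosen and were not tested.

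**Figure D3:**
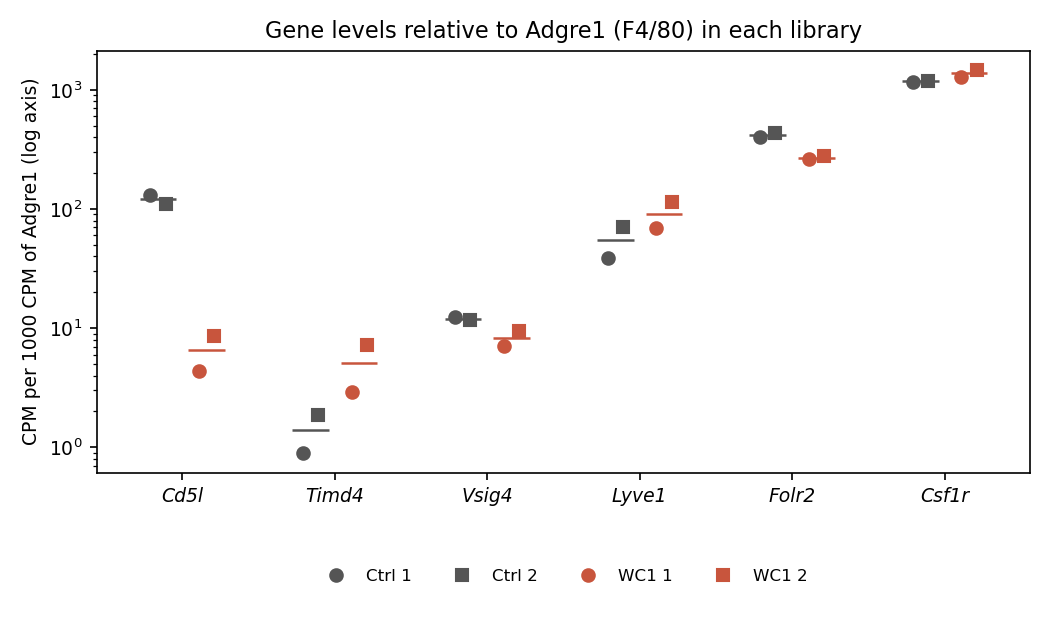
Level of the other 6 genes per 1000 CPM of Adgre1 in the same library, on a log axis; circles and squares are libraries 1 and 2, grey is Ctrl, red is WC1, and short lines are group means (n = 2). Cd5l goes from 130 and 111 to 4.40 and 8.59, Vsig4 and Folr2 are lower by less, Timd4 and Csf1r are higher and Lyve1 overlaps.

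The general macrophage and leucocyte genes were then examined. Of 12 tested, 5 were called lower and 0 higher by limma, with 8 and 0 at an unadjusted p under 0.05, 5 and 0 by edgeR and 7 and 0 by DESeq2, and the median log2 fold change was -0.73. Lyz2, the lysozyme of myeloid cells, fell from 6190 and 5352 CPM to 2875 and 2048 CPM (log2 fold change -1.25 ± 0.25, limma adjusted p = 0.036). Fcer1g, a signalling chain of Fc receptors, and Cd53, a leucocyte tetraspanin, fell with log2 fold changes of -0.95 ± 0.17 and -0.92 ± 0.18 (limma adjusted p = 0.028 and 0.035), and Ctss, a lysosomal protease, had one of -0.80 ± 0.24 (limma adjusted p = 0.081). The summed level of the 12 genes was 13571 and 12410 CPM in Ctrl against 8235 and 5624 CPM in WC1, with Lyz2 the largest part in each library. Per 1000 CPM of this sum, Cd5l was at 6.49 and 5.50 in Ctrl and 0.279 and 0.540 in WC1, a 14.7-fold lower mean, and Folr2 was at 20.1 and 21.8 in Ctrl and 16.6 and 17.4 in WC1. Vsig4 overlapped between the groups on this scale, at 0.615 and 0.577 in Ctrl and 0.452 and 0.599 in WC1. Adgre1, at 49.8 and 49.8 in Ctrl and 63.4 and 62.8 in WC1, was higher relative to the sum, as were Csf1r, Lyve1 and Timd4. The side on which Adgre1, Csf1r, Vsig4 and Lyve1 lay, or whether their groups overlapped, thus depended on whether the level was taken per library size or relative to these genes, whereas Cd5l and Folr2 were lower on both scales. Ratios to a sum without Lyz2 were not taken, so how far these sides and overlaps rest on Lyz2 is not known. These ratios are descriptions with no test, and the part of macrophage content in any of these differences was not tested.

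Other genes used for resident macrophages of fat were then examined. Of 16 tested, 7 were called lower, 1 higher and 8 not, with a median log2 fold change of -0.41. The numbers called lower and higher were 4 and 1 in edgeR, 4 and 1 in the TPM matrix and 9 and 2 in DESeq2, and 9 and 3 had an unadjusted p under 0.05. Stab1, described with the genes around phosphatidylserine, had the smallest p. Mrc1, which encodes the mannose receptor CD206, fell from 523 and 509 CPM to 312 and 247 CPM (log2 fold change -0.89 ± 0.13, limma adjusted p = 0.021). Gas6, a ligand of MERTK, fell from 342 and 354 CPM to 153 and 191 CPM (log2 fold change -1.02 ± 0.12, limma adjusted p = 0.016), and Pf4, a chemokine of platelets and resident macrophages, fell with -0.88 ± 0.11 (limma adjusted p = 0.016). Mgl2, which encodes the lectin CD301b, moved the other way and rose from 17.1 and 21.1 CPM to 34.2 and 51.2 CPM (log2 fold change 1.10 ± 0.21, limma adjusted p = 0.033).

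Genes of monocytes and of macrophages recruited in obesity gave 3 called lower, 1 higher and 8 not of 12 by limma, with 5 and 1 at an unadjusted p under 0.05, 3 and 1 by edgeR and 5 and 2 by DESeq2, and the median log2 fold change was 0.01. Spp1, which encodes osteopontin, fell from 557 and 428 CPM to 103 and 53.4 CPM (log2 fold change -2.70 ± 0.33, limma adjusted p = 0.016), and Cd9, a tetraspanin of lipid-laden macrophages, fell with -0.93 ± 0.21 (limma adjusted p = 0.045). Plac8, a gene of monocytes, fell with -0.77 ± 0.17 (limma adjusted p = 0.042), while Ccr2, the receptor that brings monocytes into tissue, rose from 62.9 and 57.4 CPM to 80.7 and 89.1 CPM (log2 fold change 0.49 ± 0.09, limma adjusted p = 0.028). Gpnmb, of lipid-laden macrophages, had a log2 fold change of -1.08 ± 0.38 and Lpl, the lipoprotein lipase of adipocytes and macrophages, one of 0.26 ± 0.32, neither called (limma adjusted p = 0.11 and 0.59).

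Macrophages of other sites also make Cd5l, Timd4 and Vsig4, so their markers were examined. Clec4f, which defines Kupffer cells of the liver, was at 0.0460 CPM in Ctrl 2 and listed at 0 in the other libraries. Of 5 tested genes used for Kupffer cells or for red pulp macrophages of the spleen, 4 were called lower and 0 higher by limma, by edgeR and by DESeq2. In the TPM matrix 3 and 0 were called, and the median log2 fold change was -1.34. Slc40a1, the iron exporter ferroportin, fell from 68.6 and 54.9 CPM to 9.18 and 10.8 CPM (log2 fold change -2.51 ± 0.14, limma adjusted p = 0.0057), Hmox1, the haem-degrading enzyme, fell from 937 and 965 CPM to 217 and 183 CPM (log2 fold change -2.25 ± 0.11, limma adjusted p = 0.0044), and Vcam1, an adhesion molecule, fell with -0.38 ± 0.08 (limma adjusted p = 0.041). Spic, the transcription factor of red pulp macrophages, was between 0.673 and 1.22 CPM (limma adjusted p = 0.24). Gata6, the defining factor of large peritoneal macrophages, was at 9.61 and 9.02 CPM in Ctrl against 7.69 and 8.96 CPM in WC1 (limma adjusted p = 0.39). Of 9 peritoneal macrophage genes tested, 0 were called lower and 1 higher by limma, with 0 and 4 at an unadjusted p under 0.05 (all tested genes, 18.9% and 18.9%), 0 and 1 by edgeR and 0 and 3 by DESeq2, and the median log2 fold change was 0.27. The gene called was Icam2, also made by endothelium, which rose from 9.91 and 10.2 CPM to 19.0 and 23.8 CPM (log2 fold change 1.01 ± 0.13, limma adjusted p = 0.018), and Prg4, which encodes lubricin, was at 23.8 and 24.3 CPM in Ctrl against 21.8 and 14.2 CPM in WC1 (limma adjusted p = 0.18). The mesothelium that covers the fat pad was represented by 6 genes, of which 0 were called in either direction by limma, edgeR or DESeq2 and 0 had an unadjusted p under 0.05, with a median log2 fold change of -0.10. Their summed level was 122 and 90.5 CPM in Ctrl against 60.7 and 163 CPM in WC1. Upk3b and Msln, the most abundant of them, were at 64.3 and 33.7 CPM in WC1 2, above the other 3 libraries. The part of these cells in the levels of the 7 genes was not tested.

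Of 8 adipocyte genes tested, 0 were called lower and 6 higher by limma, with 0 and 8 at an unadjusted p under 0.05, 0 and 7 by edgeR and 0 and 8 by DESeq2, and the median log2 fold change was 1.13. Adipoq, which encodes adiponectin, rose with a log2 fold change of 1.23 ± 0.21 and Lep, which encodes leptin, with 1.34 ± 0.24 (limma adjusted p = 0.027 and 0.028), and Cidec, a lipid droplet protein, had one of 0.83 ± 0.21 (limma adjusted p = 0.053). Their part in the levels of the 7 genes was not tested. Over all 18 lists, which share some genes, 161 genes were tested, of which 33 were called lower, 17 higher and 111 not, with a median log2 fold change of -0.12.

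**Figure D4:**
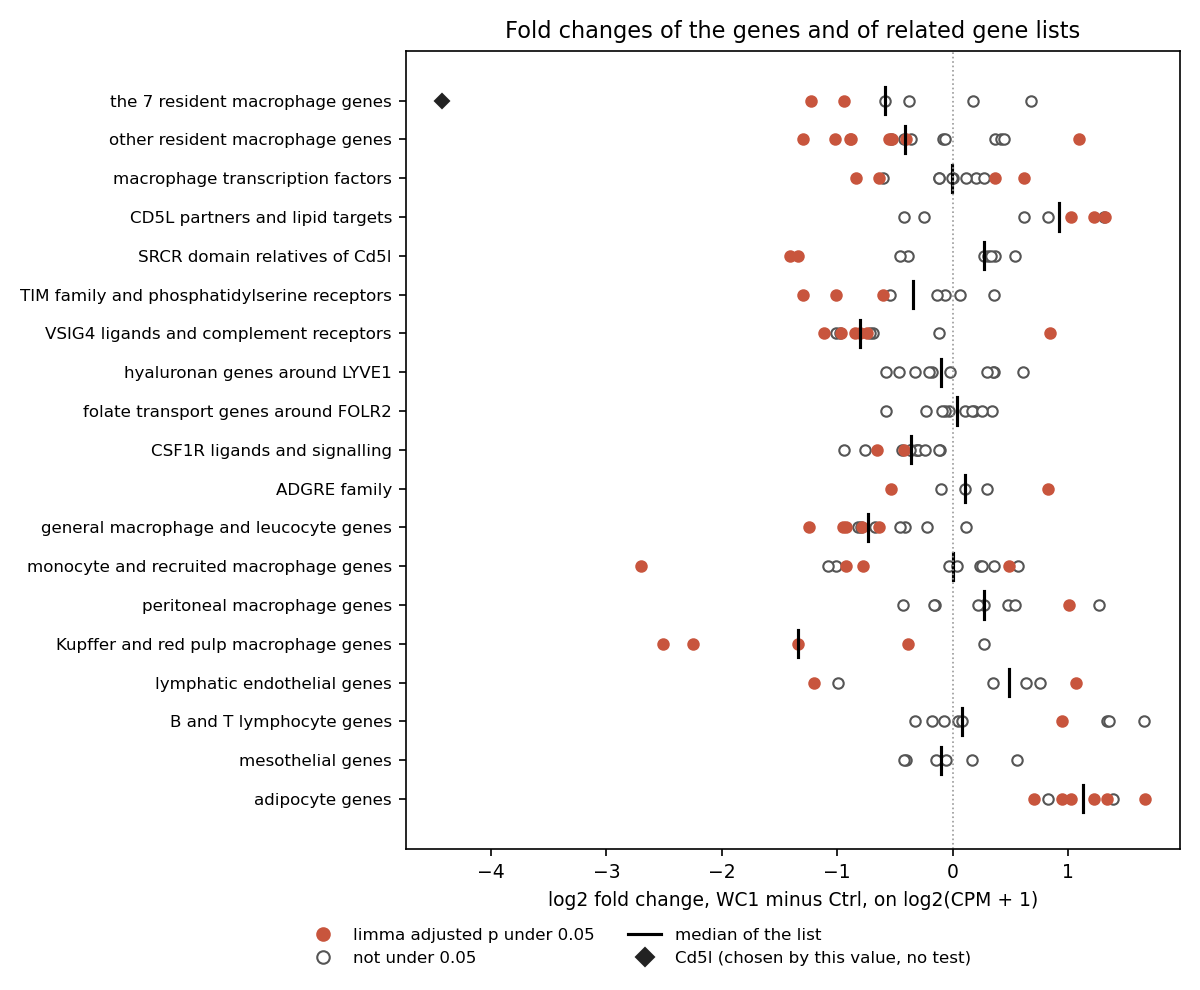
Log2 fold change, WC1 minus Ctrl on log2(CPM + 1), of the 7 genes and of the genes of each related list; filled red points have a limma adjusted p under 0.05, open points do not, the black diamond is Cd5l, and vertical bars are the median of a row. Cd5l lies at -4.43, apart from the other 6 genes at -1.23 to 0.68, and the row medians run from -1.34 for Kupffer and red pulp genes to 1.13 for adipocyte genes.

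The pattern of each gene over the 4 libraries was compared by the Euclidean distance between values of log2(CPM + 1) centred on the gene's own mean, which is a description over 4 libraries and takes in the contrast by which Cd5l was chosen. Within the group, Adgre1 and Csf1r were closest, at 0.26, followed by Vsig4 and Folr2, at 0.40. Cd5l was far from every other of the 7 genes, at 3.26 from Folr2, its nearest, and at 5.15 from Timd4. A530064D06Rik, the gene with the next largest decrease, was at 0.41 from Cd5l. Among 12639 other genes, leaving out Gm, Rik and pseudogene symbols and means under 1 CPM, those nearest to Cd5l were Clec4d at 0.80, Serpinb9b at 1.08, Clec4n at 1.15, Tpsb2 at 1.35 and Cpa3 at 1.37. Clec4d and Clec4n encode C-type lectin receptors of myeloid cells, Serpinb9b a serine protease inhibitor, and Tpsb2 and Cpa3 mast cell proteases. Clec4d was at 282 and 213 CPM in Ctrl against 17.9 and 10.5 CPM in WC1, Clec4n at 22.0 and 19.2 CPM in Ctrl against 1.02 and 1.43 CPM in WC1, and Cpa3 at 105 and 110 CPM in Ctrl against 13.1 and 8.10 CPM in WC1. Nearest to Adgre1 were Sgpl1 at 0.020, Pik3cg at 0.030 and Speg at 0.032, and nearest to Csf1r were Osbpl8 at 0.0099, Nrros at 0.019 and Cdc42se2 at 0.030. Pik3cg encodes the PI3-kinase γ of leucocytes and Nrros a myeloid partner of TGFβ.

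**Figure D5:**
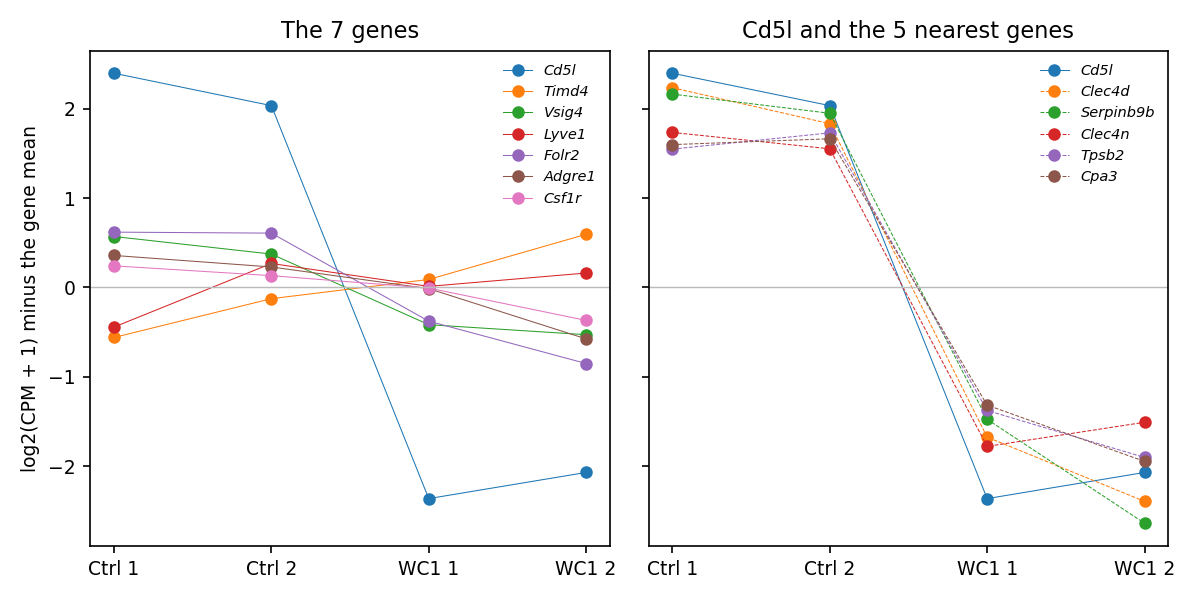
Values of log2(CPM + 1) minus the mean of the gene in each of the 4 libraries, for the 7 genes on the left and for Cd5l with its 5 nearest genes on the right; thin lines only join the points of a gene. On the left, Cd5l spans from 2.40 to -2.36, wider than any of the other 6 genes, and on the right the nearest genes are above 1.5 in Ctrl and below -1.3 in WC1.

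The spread between replicates differed among the 7 genes. In Ctrl, the libraries differed by 0.71 on the log2(CPM + 1) scale for Lyve1 and by 0.01 for Folr2, where the median of all tested genes was 0.09. In WC1, they differed by 0.56 for Adgre1, 0.47 for Folr2 and 0.36 for Csf1r, with WC1 2 the lower in each, and by 0.50 for Timd4, with WC1 2 the higher, where the median of all tested genes was 0.14. Cd5l differed by 0.36 in Ctrl and by 0.29 in WC1, in which WC1 2 was the higher. Over 14 alternative settings of the processing, the log2 fold change of Cd5l ran from -4.85 to -4.10, that of Vsig4 from -1.11 to -0.81 and that of Folr2 from -1.46 to -0.99, and these kept their sign, as did Adgre1 from -0.87 to -0.31 and Csf1r from -0.56 to -0.19. Timd4 ran from 0.43 to 1.22 over the 13 settings in which it was tested.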

How the data were processed

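Poly(A) RNA of whole epididymal adipose tissue from 2 Ctrl and 2 WC1 samples had been sequenced as directional libraries. The submitters' processing notes name fastp, HISAT2, StringTie and the genome build mm10, whereas the read counter and annotation were not given in the sources used here. The authors deposited a pair of matrices of 24421 gene symbols. The first is a signal proportional to reads, called CPM, which the authors scaled by a library size adjusted per library: columns sum to between 976415 and 1047790. Dividing by what 1 read is worth in a column gave whole reads for 100% of values, with a tolerance of 0.01 read. The other matrix holds TPM, for which the authors also divided by transcript length. Neither matrix holds columns of comparisons made by the authors.

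Samples were grouped by their titles. The test took genes that reached 0.5 CPM in 2 or more libraries, leaving 14106 and removing 10315. WC1 was compared with Ctrl on log2(CPM + 1) by limma 3.58.1 in R 4.3.3 (two-sided, abundance trend, Benjamini-Hochberg adjustment over all tested genes, threshold 0.05). An exact permutation test of 1 gene cannot go below p = 0.333 with 2 libraries per group. Detection limits of 3 reads cover counting error only. edgeR 4.0.16 and DESeq2 1.42.0 on the recovered reads, the TPM matrix, other pseudocounts, filters and scalings, a replicate block and leaving out each library were alternatives. Tested on data drawn with known changes in 200 of 14106 genes for WC1 minus Ctrl, limma recovered 178 (97% of 4-fold and 81% of 2-fold changes) with 22 false calls, edgeR 181 with 25 and DESeq2 186 with 52. The changed genes were drawn from those with a mean of at least 1 CPM, so these shares do not cover lower genes. In the data themselves 1443 genes were called higher and 1088 lower, so the setting differed from the data.

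The 7 genes and the 18 related lists were chosen with earlier results of these data known. Genes named from a list are up to 3 called lower and 3 called higher with the smallest p and the 2 most abundant, and some of these are not reported here. The genes nearest to Cd5l, Adgre1 and Csf1r were taken by distance among genes with a mean of at least 1 CPM, leaving out Gm, Rik and pseudogene symbols. Cd163, Nr1h3, Csf1, Il34, Itgam, Itgax, Spic, Gata6, Clec4f, Prox1, Timd2, Havcr1 and Adgrb1 were named for their role, with their values seen. Of 170 listed genes 169 were in the matrices, 2 of them under older symbols matched through RefSeq synonyms (Scart1 as Cd163l1 and Cemip2 as Tmem2), and Ighm was not. Positions are from GENCODE M21 (GRCm38) and promoters from RefSeq (GRCm38.p6), in which Cd5l, Timd4, Vsig4 and Folr2 were matched and printed or described and Lyve1 and Adgre1 were not matched. The promoter of Csf1r is not reported here.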

Additional observations from a re-analysis of the deposited data

How the results depend on the processing

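Of 1061 comparisons of a named gene under an alternative with its reported value, over 76 genes and without Cd5l or any count of genes, 860 kept the direction and the side of the threshold. Without a filter, which raised the genes tested to 18132, 788 genes were called higher and 532 lower, and 5 and 12 of the listed genes, compared to 17 and 33. In the TPM matrix 583 genes were called lower and 21 of the listed genes, and 77.9% of called genes were higher, compared to 57.0% in CPM and 67.2% in plain CPM. TPM moved the all-gene median by 0.12 on the log2 scale, and relative to that median Cd5l was at -4.41 in both matrices, Folr2 at -1.19 compared to -1.21, Vsig4 at -0.97 compared to -0.93, Adgre1 at -0.55 compared to -0.57, Csf1r at -0.34 compared to -0.36, Lyve1 at 0.21 compared to 0.19 and Timd4 at 0.63 compared to 0.70. Called lower in TPM were 3 of the general macrophage genes (5 in CPM), 1 of the CSF1R list (2), 1 of the transcription factors (2), 2 of the monocyte list (3), 2 of the phosphatidylserine list (3) and 3 of the Kupffer and red pulp genes (4). Called higher were 5 of the CD5L partners (3 in CPM), 3 of the transcription factors (2), 2 of the peritoneal genes (1), 7 of the adipocyte genes (6), 1 of the hyaluronan genes (0) and 1 of the folate genes (0). In TPM the median changed sign for the transcription factors (0.13), the hyaluronan genes (0.03) and the mesothelial genes (0.04). DESeq2 called 2125 genes higher and 1736 lower, and 30 and 49 of the listed genes. Leaving out 1 library left a group of 1 sample, assumed to vary like the other group. The number of genes called higher then ran from 2 to 2424 and lower from 4 to 2748, with the fewest without Ctrl 1 and the most without WC1 1. The 7 genes gave 1 to 5 called lower, or 0 to 4 of the 6 other than Cd5l, which was chosen by this comparison, and the listed genes 0 to 61 lower and 0 to 37 higher. The log2 fold change of Lyve1 ran from -0.18 to 0.53, of C3 from -0.33 to 0.092, of Upk3b from -0.92 to 0.64 and of Msln from -0.53 to 0.88. C3 was at 0.021 in TPM, Shmt2 at 0.074 in TPM and 0.0097 in plain CPM, and Upk3b at 0.072 in edgeR and 0.074 in DESeq2. The cause of these changes was not tested. The replicate block gave 1769 genes higher and 1497 lower, with 3 of the 6 genes other than Cd5l called lower and Timd4 called higher (adjusted p = 0.032). No label says whether equal numbers pair the libraries, and the difference between libraries 1 and 2 correlated across 14106 genes with r = 0.19 between the groups, with too few pairs to decide.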

Other observations

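The library numbers 1 and 2 shared large differences in a few genes. In 8 tested genes, libraries 1 and 2 differed by at least 2 on the log2(CPM + 1) scale the same way in both groups. C5ar1, a complement receptor in the list around Vsig4, was at 330 and 44.3 CPM in Ctrl 1 and Ctrl 2 and at 214 and 17.0 CPM in WC1 1 and WC1 2. Rps27, a ribosomal protein gene, was at 207, 4.45, 161 and 3.78 CPM in the same order of libraries, and its near copy Rps27rt was at 32.6, 206, 23.5 and 150 CPM. These genes were chosen after their values were seen.

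Jchain, the joining chain of secreted immunoglobulins, was at 6.38, 6.92, 7.80 and 40.0 CPM in Ctrl 1, Ctrl 2, WC1 1 and WC1 2, and Cxcl13, the chemokine that attracts B cells, was at 1.61, 1.06, 1.33 and 12.4 CPM. Ms4a1, a B cell surface gene, was at 5.37 CPM in WC1 2 and at no more than 0.672 CPM in the other libraries. These, too, were chosen after their values were seen.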
